A study of Mus musculus with 4 samples.

Results

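Hair follicle keratinocytes were compared with interfollicular basal keratinocytes of the same embryos in control (Ctrl) mouse dorsal skin, by summing single-cell RNA-seq counts over the barcodes of each compartment in each library. A barcode stands for 1 droplet, usually 1 cell, and a UMI for 1 counted RNA molecule. Barcodes were taken with at least 2000 detected genes, under 10% mitochondrial UMIs and under 20 UMIs of the suprabasal keratins Krt1 and Krt10 per 10000 UMIs of the barcode. A follicle barcode had at least 10 UMIs per 10000 of Krt5, Krt14, Krt15 and Krt17 together and at least 2 per 10000 in any of 3 sums: Shh, Wif1 and Lhx2 (named here the germ sum), Dkk4, Fgf20 and Sp5 (the placode sum), or Pthlh, Tafa1 and Krt79 (the peg sum). An interfollicular barcode had at least 50 per 10000 of Krt5, Krt14 and Krt15 together and less than 2 per 10000 in each of the 3 sums. Members were thus chosen by the measured levels of these genes. Of the 11428 barcodes in the Ctrl libraries, and 19789 in the whole series, 4460 were members. The follicle held 1091 of them, 424 in Ctrl 1 and 667 in Ctrl 2, and the interfollicular compartment held 3369, 1522 in Ctrl 1 and 1847 in Ctrl 2.

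Hair follicles form where the epidermis thickens into a placode, which grows down into the dermis as a hair germ and then as a hair peg. Wnt and ectodysplasin (Eda) signals are needed for placodes to form, Sonic hedgehog made by the epithelium drives the downgrowth, and BMP signals limit where placodes arise. The keratinocytes between follicles stay on the basement membrane, divide, and send daughters up to build the barrier.

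The study asks what the loss of 3 histone methyltransferases, which write the repressive mark H3K9me3, does to the developing epidermis. Each library came from 1 embryo at E16.5 per the labels, but E15.5 is the age the study's table of litters holds for single-cell work. Cells were sorted as Epcam+ and α6 integrin+, so both compartments come from a gate for epithelial cells on the basement membrane. The Ctrl embryos were Suv39h1 f/f, Suv39h2-/-, Setdb1 f/f and K14CreERT2-, so they too lacked Suv39h2, and the pregnant females received tamoxifen. The TKO embryos, used below only as libraries outside the choice of members, carried the same alleles and K14CreERT2+, a Cre driven by the keratin 14 promoter of basal keratinocytes that left the knockout mosaic per the study. There were 2 embryos per genotype, so n = 2 libraries for every mean, and p-values measure the spread between these few embryos.

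The Ctrl matrices held 5643 and 5785 barcodes with 89655247 and 72236508 UMIs. The filter on genes and mitochondrial UMIs kept 3196 and 3391 barcodes, the keratin 1 and 10 limit left 2360 and 2878, and 414 and 364 of these passed neither compartment's rule. Without the gating genes the follicle sums held 11439995 and 13801991 UMIs in Ctrl 1 and Ctrl 2, and the interfollicular sums held 34856114 and 34434686. Median depth was 22030.5 and 16410 UMIs per follicle barcode against 21434.5 and 17306 per interfollicular barcode. Mitochondrial UMIs had a median of 2.02% and 1.76% in the follicle against 2.67% and 2.20%, and ribosomal protein genes took 14.1% and 13.6% of follicle UMIs against 18.1% and 17.1%. The part of these differences in the results below was not tested. The Ctrl libraries shared 7 barcode sequences, 1 of them in a member.

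The follicle made up 21.8% of the members in Ctrl 1 (95% exact interval 19.97 to 23.7) and 26.5% in Ctrl 2 (24.8 to 28.3), intervals that cover counting error only and do not overlap. The mean was 24.2% ± 3.35 (SD, n = 2), and it was 18.6% where the follicle had to hold at least 5 per 10000 in a sum. These shares are set by the gate and by the sort, which keeps cells by their α6 integrin.

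The gating genes chose the members, so their values are a description. Lhx2, a transcription factor of the hair germ, stood at 3.80 and 4.05 UMIs per 10000 in the follicle sums against 0.0259 and 0.0247 in the interfollicular sums. Shh, the hedgehog ligand, stood at 1.42 and 1.34 against 0.0155 and 0.0225, and Pthlh, which encodes parathyroid hormone-related protein, at 1.38 and 2.01 against 0.0304 and 0.0353. Krt14, a basal keratin, was at 18.4 and 19.9 in the follicle against 76.3 and 85.6, and Krt15 at 25.5 and 28.1 against 46.7 and 56.8. Krt17, a keratin of the follicle and other appendages, was at 12.6 and 12.5 against 2.71 and 2.86. The low Krt14 and Krt15 of the follicle follow in part from the unequal keratin floors of 10 and 50. With an equal floor of 50 for both compartments 6094 genes were called in place of 7210 (below).

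Near the threshold, 55 and 69 follicle barcodes (13.0% and 10.3% of the follicle) had a largest gating sum of 2 to 3 per 10000, and 71 and 94 interfollicular barcodes (4.66% and 5.09%) had one of 1 to 2. A sum of 0 was found in 1222 and 1482 interfollicular barcodes. The median largest sum of a follicle barcode was 7.45 and 8.77. Across this threshold, 12 follicle marker genes outside the gate rose in steps rather than at a single point. In Ctrl 1 their summed level was 1914, 2524 and 3312 CPM (UMIs per 1000000 of the bin) in interfollicular barcodes with a largest sum of 0, of 0 to 1 and of 1 to 2, then 3479, 4370, 4699 and 5121 in follicle barcodes at 2 to 3, 3 to 5, 5 to 10 and 10 or more. In Ctrl 2 the levels were 1992, 2651 and 3535, then 3402, 4057, 4113 and 4695. The barcodes just outside and just inside were close to each other in both libraries, and Ctrl 2 was slightly lower just inside. Trps1, a zinc finger repressor of the follicle, moved more steeply, from 243 just outside to 309 just inside in Ctrl 1 and from 97.2 to 414 in Ctrl 2.

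**Figure D1:**
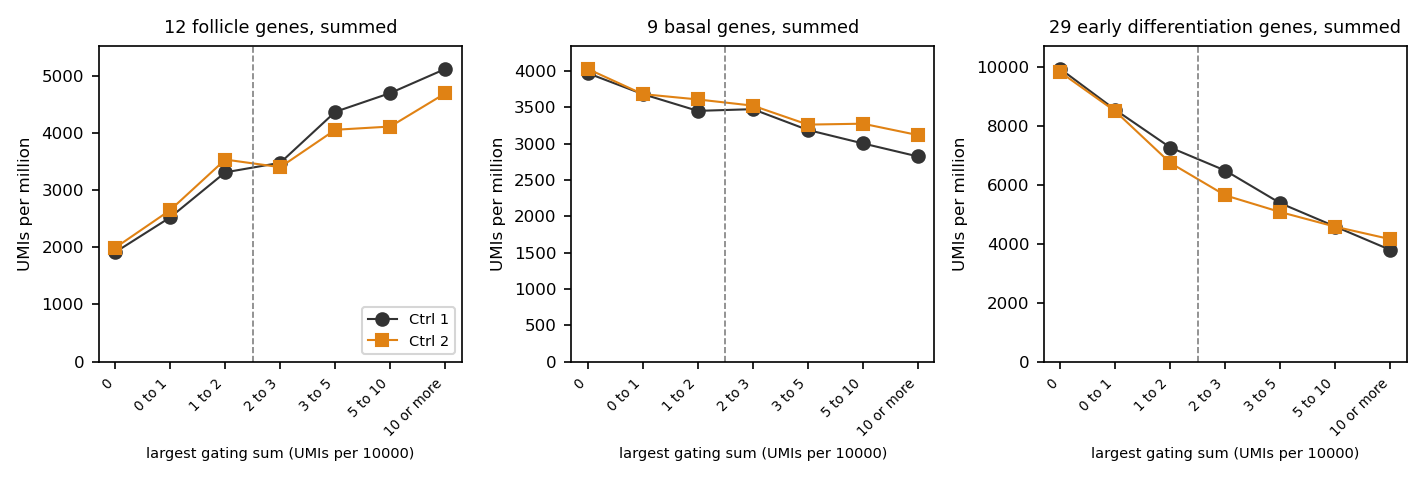
Summed level (CPM) of 12 follicle marker genes, 9 basal keratinocyte genes and 29 early differentiation genes in Ctrl barcodes binned by their largest gating sum, for Ctrl 1 (circles) and Ctrl 2 (squares). The follicle genes climb from 1914 and 1992 in the lowest bin to 5121 and 4695 in the highest, and the early differentiation genes fall from 9937 and 9826 to 3790 and 4156.

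The label was checked against 12 follicle markers that the gate did not use. Of these, 10 were higher in the follicle and 2 were lower, with a median log2 difference of 1.45, where log2 differences are follicle minus interfollicular and levels are CPM, UMIs per 1000000 after TMM scaling. Over all 17634 genes tested, 20.8% were higher in the follicle, 20.1% were lower and the median was 0.00. Trps1 had the largest difference of the 12, at 949 and 974 in the follicle against 41.2 and 33.6, a log2 difference of 4.69 ± 0.08 (SE; edgeR quasi-likelihood test, adjusted p = 3.2e-09). Sox9, a transcription factor of follicle stem and outer root sheath cells (chromosome 11, 112673009 to 112678586, GRCm39), was at 181 and 249.8 against 29.4 and 32.0 (2.80 ± 0.08, adjusted p = 2.4e-08). Foxi3, a placode factor downstream of Eda, was at 8.72 and 6.64 against 1.21 and 1.34 (2.58 ± 0.22), and Cux1, a homeodomain factor of the inner root sheath, was at 331 and 279 against 92.2 and 89.97 (1.74 ± 0.06). In each of these the 2 follicle sums lay above the 2 interfollicular sums, and the compartments did not overlap, in either direction, in 63.6% of all genes tested. The exceptions to the label were Lef1, the Wnt transcription factor of the placode (chromosome 3, 130903919 to 131018005), at 533 and 481 in the follicle against 747 and 846 (−0.65 ± 0.07, adjusted p = 5.9e-05), and Tnfrsf19, a TNF receptor family member induced by Wnt in skin, at 287 and 261 against 318 and 326 (−0.23 ± 0.05, adjusted p = 0.0058). The Tnfrsf19 call was lost without the library block (adjusted p = 0.083), with library totals in place of TMM (0.18) and with germ barcodes alone as the follicle (0.27). The stage values below show where Lef1 and Tnfrsf19 were high.

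Promoters are shown for 2 of these markers because they hold the letters CTTTGAT, a core that TCF and LEF factors bind, and because the 2 genes differed in opposite directions. Sequences and positions here are RefSeq's on GRCm38.p6, each window running from 250 bases before the gene's start to 50 after it, printed in the direction of the gene. Capitals mark the match on either strand. Edar lies on the minus strand and its window is chr10:58675647-58675946, with the match in the direction of the gene, beginning 233 bases before the start. Tnfrsf19 lies on the minus strand too, in chr14:61037938-61038237, with the match on the opposite strand, 202 bases before the start.
Edar: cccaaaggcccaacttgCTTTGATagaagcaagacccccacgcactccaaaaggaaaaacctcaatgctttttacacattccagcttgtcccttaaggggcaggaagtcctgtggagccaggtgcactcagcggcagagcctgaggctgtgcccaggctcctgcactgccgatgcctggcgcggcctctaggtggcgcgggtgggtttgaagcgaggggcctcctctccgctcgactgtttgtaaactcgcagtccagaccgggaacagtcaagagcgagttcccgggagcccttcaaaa
Tnfrsf19: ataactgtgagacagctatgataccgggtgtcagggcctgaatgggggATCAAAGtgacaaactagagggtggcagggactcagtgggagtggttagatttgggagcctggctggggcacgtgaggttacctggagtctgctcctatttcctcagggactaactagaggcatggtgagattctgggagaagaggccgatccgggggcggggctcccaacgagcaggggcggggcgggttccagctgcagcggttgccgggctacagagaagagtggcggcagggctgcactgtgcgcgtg
Of the 12 markers 6 matched the promoter table, with 10 windows, and 2 of those windows hold the letters. Of all 32851 windows, 1225 (3.73%) hold them. A match describes these letters only and is not a binding site.

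Basal and suprabasal markers were lower in the follicle than between follicles. Of 9 basal keratinocyte markers 8 were lower and 1 was higher, with a median of −0.52. Itga6, the α6 integrin of hemidesmosomes by which the cells were sorted, was at 274 and 266 in the follicle against 524 and 528 (−0.96 ± 0.04). Col17a1, a hemidesmosome collagen, was at 202 and 199 against 416 and 414 (−1.05 ± 0.04). Epcam, the other sorted antigen, was the exception at 429.7 and 429 against 174 and 177 (1.29 ± 0.04, adjusted p = 6.0e-08). Trp63, the master regulator of stratified epithelium, was at 712 and 761 against 852 and 783 (−0.15 ± 0.05, adjusted p = 0.042). The call did not hold without the library block (adjusted p = 0.24), with DESeq2 (0.24), with library totals in place of TMM (0.90) or with an equal keratin floor (0.098). Of the 8 suprabasal markers tested 5 were lower and 1 was higher, with a median of −1.58. The follicle barcodes thus carried the keratinocyte markers at lower levels and most follicle markers at higher ones, and the label holds except for Lef1 and Tnfrsf19. With an equal keratin floor of 50 the medians were 0.95 for the follicle markers, −0.27 for the basal markers, of which 5 were then lower, and −1.06 for the suprabasal markers.

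Most follicle stem cell genes and follicle transcription factors were higher in the follicle, while most Wnt ligands and early differentiation genes and many S phase genes were lower, as the counts below give for each list. In the Ctrl libraries 7210 of 17634 genes (40.9%) passed an adjusted p of 0.05 between the compartments, 3660 higher in the follicle and 3550 lower. Large differences leaned towards the follicle: 1757 genes (9.96%) were higher and 732 (4.15%) lower by at least 1 on the log2 scale, and 863 (4.89%) against 205 (1.16%) by at least 2. The gate is not symmetric: interfollicular barcodes were screened for low follicle sums, while follicle barcodes were not screened against interfollicular genes. The part of the gate in this lean was not tested. Called genes were 50.8% higher with TMM scaling and 70.8% higher with library totals alone, which moved the median of all genes by 0.14, so small differences are relative to that choice. The fit had 1 residual degree of freedom, shared across genes by edgeR, and 4299 genes were called without the library block. Where Ctrl 1 or Ctrl 2 was left out, here and below, the Ctrl difference rests on 1 embryo and the spread was taken from the TKO libraries. A call lost in such a fit is thus weak evidence about a Ctrl gene. A difference of sums does not tell whether more barcodes held the RNA or each held more of it.

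Among genes with at least 20 CPM in the higher compartment, the 12 largest differences were led by Myrip, a linker between Rab27a and myosin (chromosome 9, 120130579 to 120303916). It was at 17.7 and 28.5 in the follicle against 0.211 and 0.0610 (7.34 ± 0.30, adjusted p = 1.9e-07). Bdnf, a neurotrophin (chromosome 2, 109505045 to 109557475), was at 49.2 and 74.0 against 0.572 and 0.305 (7.104 ± 0.19). Tgfb2, a TGF-beta ligand needed for hair follicle growth (chromosome 1, 186354985 to 186438294), had the highest level of the 12, at 455 and 495 against 8.68 and 6.46 (5.97 ± 0.11). The lncRNA Gm35546 overlaps Tgfb2 on the opposite strand and was at 31.1 and 32.9 against 0.361 and 0.549 (6.12 ± 0.17).

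Hmcn1, the matrix protein hemicentin 1, was at 125 and 171 against 2.65 and 1.01 (6.32 ± 0.24). Tll1, a metalloproteinase of the BMP1 family, was at 206 and 160.0 against 3.43 and 2.87 (5.85 ± 0.08). Mme, a cell-surface endopeptidase, was at 32.1 and 30.1 against 0.542 and 0.305 (6.18 ± 0.18). The others were Lgr5, a receptor for R-spondins and a follicle stem cell marker, at 82.8 and 99.0 against 2.53 and 0.579 (5.86 ± 0.29), and the T-box factor Tbx1 at 31.3 and 34.6 against 0.663 and 0.274 (6.12 ± 0.22). The Ctrl 1 interfollicular level of Lgr5 was carried by the 71 barcodes nearest the threshold, at 47.5, against 0.180 in the 1222 barcodes with a sum of 0. Synpo2, an actin-binding protein, was at 129.6 and 124 against 2.59 and 1.43 (5.98 ± 0.13), the xylosyltransferase Gxylt2 at 22.01 and 22.3 against 0.392 and 0.457 (5.69 ± 0.18), and 6330403K07Rik at 67.6 and 87.4 against 1.27 and 1.07 (6.04 ± 0.13).

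Under the same limit the 12 largest differences in the other direction were smaller on the log2 scale, and the part of the gate in this was not tested. Col19a1, a basement membrane zone collagen (chromosome 1, 24296772 to 24627011), was at 1.99 and 2.49 in the follicle against 29.2 and 32.9 between follicles (−3.78 ± 0.13, adjusted p = 7.2e-08). Wnt3a, a canonical Wnt ligand (chromosome 11, 59138859 to 59181584), was at 3.99 and 3.67 against 47.4 and 34.4 (−3.40 ± 0.12). Aqp3, the water and glycerol channel of the epidermis, was at 20.7 and 19.9 against 176 and 207 (−3.24 ± 0.08). Igfbp2, a binding protein of insulin-like growth factors, was at 45.3 and 53.8 against 412 and 441 (−3.11 ± 0.06).

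The cystatin family member Stfa3 was at 80.8 and 82.1 against 595 and 727 (−3.02 ± 0.07) and the serpin Serpinb10 at 30.9 and 27.4 against 261 and 209 (−3.01 ± 0.06). Serpinb7 was at 2.74 and 2.01 against 22.5 and 25.3 (−3.35 ± 0.16). Anxa8, an annexin, was at 12.3 and 15.8 against 148 and 153 (−3.41 ± 0.08), Gna14, a G protein subunit, at 7.64 and 8.86 against 62.7 and 72.2 (−3.03 ± 0.08), and Gria2, a glutamate receptor subunit, at 4.07 and 4.36 against 32.5 and 33.0 (−2.96 ± 0.11). The log2 differences of Gdpd2, a phosphodiesterase, and of the carboxylesterase Ces2g were −3.21 ± 0.17 and −3.14 ± 0.15.

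**Figure D2:**
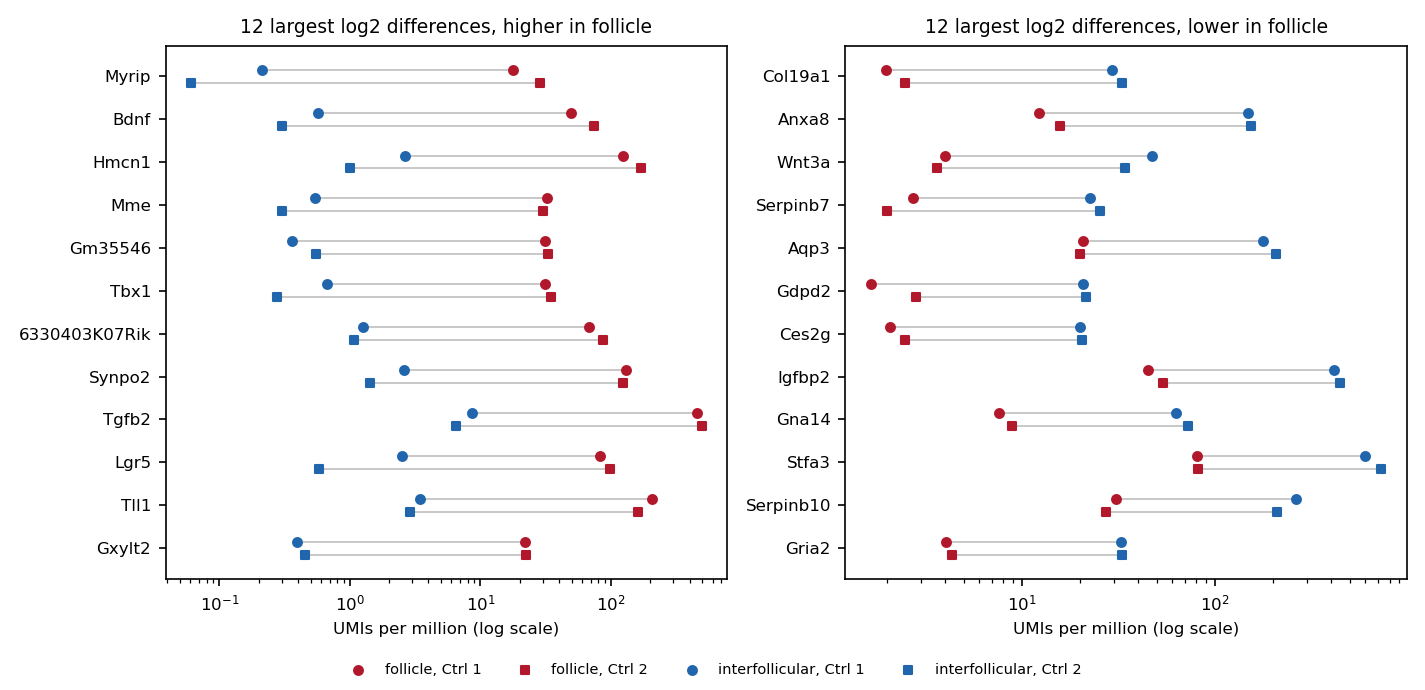
Levels (CPM, log axis) of the 12 genes with the largest and the 12 with the smallest log2 difference among called genes with at least 20 CPM in the higher compartment, in follicle sums (red) and interfollicular sums (blue) of Ctrl 1 (circles) and Ctrl 2 (squares). In all 24 genes the compartments do not overlap, from Myrip (17.7 and 28.5 against 0.211 and 0.0610) to Col19a1 (1.99 and 2.49 against 29.2 and 32.9).

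Among 21 placode and follicle transcription factors 19 were tested, of which 14 were higher in the follicle, 3 were lower and 2 were not called, with a median of 2.26. The median was 1.41 with an equal keratin floor and 1.64 among barcodes with no UMI of Mki67 and Top2a. Runx1, a follicle stem cell factor, was at 381 and 485 against 19.4 and 22.6 (4.36 ± 0.06, adjusted p = 1.3e-09). Prdm1, a repressor also called Blimp1, had a log2 difference of 4.68 ± 0.13 and Nfatc1, which holds bulge stem cells quiescent, one of 4.41 ± 0.08. Nfatc1 was at 91.2 and 116 against 3.92 and 5.88. Hoxc13, needed for hair shaft keratins, was at 40.7 and 42.0 against 5.27 and 7.35 (2.72 ± 0.12). The 3 lower factors were Foxn1, which promotes keratinocyte differentiation, at 1.25 and 0.830 against 3.89 and 2.87 (−1.70 ± 0.26), Dlx3 at 6.48 and 7.68 against 12.8 and 13.6 (−0.90 ± 0.13) and Irx5 (−0.35 ± 0.07). The Dlx3 call was lost when either library was left out.

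Among 16 genes of follicle stem cells and compartments 14 were tested, 12 were higher and 1 was lower, with a median of 2.38. Besides Lgr5, Runx1, Nfatc1 and Sox9 they included Lgr6, another R-spondin receptor, at 352 and 381 against 102 and 106 (1.82 ± 0.05), and Lrig1, an inhibitor of receptor tyrosine kinases in the upper follicle, at 368 and 446 against 225 and 202 (0.93 ± 0.09). Tcf7l1, a repressor in the Wnt pathway, was at 139 and 148 against 113 and 126 (0.26 ± 0.05, adjusted p = 0.0029), lost without the block (adjusted p = 0.078) and when either library was left out. The lower gene was Plet1, a marker of the upper follicle, at 20.3 and 24.4 against 38.7 and 56.4 (−1.084 ± 0.09). Id2 was not called.

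In the hedgehog pathway the target genes Ptch1, Gli1 and Hhip were higher in the follicle, and 2 of the 3 co-receptors that bind the ligand were lower. Of 18 genes tested 7 were higher and 6 were lower, with a median of 0.15 (3 and 4 without Ctrl 1, 4 and 4 without Ctrl 2). Ptch1, the receptor and a target gene (chromosome 13, 63656142 to 63721412), was at 654 and 551 against 325 and 329 (0.87 ± 0.06, adjusted p = 4.5e-06). Gli1, the transcription factor that serves as the standard readout of the pathway, was at 51.3 and 46.5 against 17.0 and 19.5 (1.42 ± 0.09). Hhip, a decoy receptor and target, had 106 and 101 UMIs in the follicle against 0 and 2 between follicles, a ratio of levels of 258 (95% exact counting interval 70.5 to 2143). The transducer Smo differed by 0.25 ± 0.06 and the repressor Sufu by 0.42 ± 0.07. The transcription factors that are not targets went the other way, Gli2 by −0.16 ± 0.04 and Gli3 by −0.46 ± 0.06. Of the co-receptors, Cdon was at 34.4 and 33.8 in the follicle against 134 and 136 (−1.98 ± 0.06) and Gas1 at 206 and 251 against 351 and 360.1 (−0.64 ± 0.06), whereas Boc (0.05 ± 0.10) was not called. Scube2, which helps release the ligand from cells, was at 3.40 and 2.91 against 13.98 and 13.8 (−2.14 ± 0.15). The Ptch1 call was lost without Ctrl 1 (adjusted p = 0.082).

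Most Wnt ligands were lower in the follicle and most Wnt receptors and mediators were higher. Of 10 ligands tested 8 were lower and 2 were higher, with a median of −0.94. Besides Wnt3a, the lower ligands included Wnt4 at 253 and 249 against 614 and 645 (−1.33 ± 0.04), Wnt16 at 43.0 and 39.5 against 162 and 161 (−1.97 ± 0.06) and Wnt10a (−1.21 ± 0.06). The higher ligands were Wnt5a, which acts through Ror2, at 10.9 and 10.8 against 0.542 and 0.183 (4.89 ± 0.30), and Wnt10b, an early placode ligand, at 107 and 93.6 against 88.0 and 86.1 (0.20 ± 0.06). The Wnt10b call was lost without the block (adjusted p = 0.17) and when either library was left out, and its sign turned with an equal keratin floor (−0.23).

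Of 23 Wnt receptors and mediators tested 15 were higher and 4 were lower, with a median of 0.53. Ror2 was at 15.2 and 13.6 against 1.05 and 0.945 (3.84 ± 0.18). Ctnnb1, which encodes β-catenin, differed by 0.52 ± 0.05, the frizzled receptor Fzd7 by 1.496 ± 0.16 and the R-spondin receptor Lgr4 by 0.79 ± 0.06. Fzd6, the frizzled of hair orientation, was lower at 81.0 and 71.9 against 178 and 135 (−1.03 ± 0.06). Lef1 (above) was the other lower mediator named.

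Of 16 Wnt targets and inhibitors tested 10 were higher and 2 were lower, with a median of 0.38, but 5 of 17 were higher without Ctrl 1 and 4 of 17 without Ctrl 2. Nkd1, an inhibitor of Dishevelled, was at 28.5 and 31.7 against 1.36 and 0.640 (4.91 ± 0.22), and Notum, an enzyme that inactivates Wnt ligands, at 4.07 and 8.51 against 0.181 and 0.122 (5.30 ± 0.36). Axin2, the usual readout of canonical Wnt signalling, was at 31.1 and 33.3 against 39.7 and 35.7 (−0.22 ± 0.08, adjusted p = 0.06) and was not called. The lower genes were Kremen2, a receptor for Dickkopf proteins, at 94.3 and 90.7 against 118 and 131 (−0.43 ± 0.06), and Apcdd1, a Wnt inhibitor, at 137 and 149.8 against 172 and 175 (−0.28 ± 0.05). The Apcdd1 sign turned with an equal keratin floor (0.08) and without cycling barcodes (0.06).

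In the Eda and NF-kB pathway the receptor was higher and the ligand was lower in the follicle. Of 14 genes tested 6 were higher and 3 were lower, with a median of 0.08 (−0.03 without Ctrl 1, 0.16 without Ctrl 2). Edar, the receptor (chromosome 10, 58436611 to 58511535), was at 337 and 261 against 106 and 97.7 (1.54 ± 0.06, adjusted p = 2.2e-07). Eda, the ligand, was at 133 and 144 against 536 and 407 (−1.75 ± 0.10, adjusted p = 1.4e-06). Edaradd, the adaptor of the receptor, was lower at 71.9 and 55.7 against 103 and 90.6 (−0.61 ± 0.06). Ltb, the lymphotoxin ligand and a target of the pathway, was at 13.95 and 8.99 against 1.085 and 2.16 (2.80 ± 0.32). Without the block 3 genes were higher and 2 were lower, as against 3 and 3 without Ctrl 1 and 2 and 2 without Ctrl 2.

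In the BMP pathway 11 of 20 genes tested were higher and 1 was lower, with a median of 0.34 (7 higher without Ctrl 1, 8 without Ctrl 2). The ligands Bmp2, at 144 and 149.7 against 69.4 and 92.5 (0.87 ± 0.08), Bmp4 (1.98 ± 0.14) and Bmp7 (0.48 ± 0.05) were higher, as were the feedback inhibitors Smad7 at 55.1 and 70.98 against 21.2 and 34.2 (1.20 ± 0.08) and Smad6 (1.085 ± 0.11). Bmpr1b, a type I receptor, was the lower gene, at 238 and 208 against 809 and 745 (−1.80 ± 0.04), whereas Bmpr1a (0.07 ± 0.05) was not called. The Bmp2 call was lost with barcodes holding markers of other cells left out, Dcn and Postn included (0.039, adjusted p = 0.80), a setting that removed 39 of 42 and all 72 of the placode barcodes, where Bmp2 was highest (314 and 397 against 119 and 124 in germ). The response genes Id1, Id2 and Id3 were not called.

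In the FGF pathway 6 of 14 genes tested were higher and 4 were lower, with a median of 0.10. The median was 0.18 without Ctrl 1 and −0.03 without Ctrl 2, with 18 genes tested in each. Fgfr1 was at 188 and 223 in the follicle against 23.2 and 22.1 (3.18 ± 0.08), and Dusp6, a phosphatase induced by FGF signalling, at 155 and 156 against 52.9 and 58.4 (1.49 ± 0.06). The receptor Fgfr2 was lower, at 547 and 528 against 831 and 823 (−0.62 ± 0.04), with Fgfr3 (−0.95 ± 0.07) and Fgfbp1, a carrier of FGF ligands, at 100.2 and 117 against 405 and 482 (−2.03 ± 0.05). Fgf9 was the higher ligand, by 5.35 ± 0.25.

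In the TGF-beta pathway 8 of 14 genes tested were higher and 4 were lower, with a median of 0.56 (0.32 without Ctrl 1, 0.74 without Ctrl 2). The higher genes included Ltbp1, a latent TGF-beta binding protein, was at 240.4 and 249 against 8.01 and 5.24 (5.21 ± 0.12), Tgfb3 differed by 3.76 ± 0.10 and Inhbb, an activin subunit, by 6.01 ± 0.27. The lower genes were the receptors Tgfbr1 (−0.23 ± 0.06), Tgfbr2, at 21.3 and 29.8 against 47.4 and 58.4 (−1.05 ± 0.08), and Tgfbr3 (−0.18 ± 0.05), and the secreted target Tgfbi, at 4.82 and 8.79 against 12.1 and 16.3 (−1.07 ± 0.14). Without the block 1 gene was lower, without Ctrl 1 there were 2, and the Tgfbi call was lost (adjusted p = 0.052).

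In the Notch pathway 4 of 14 genes tested were higher and 5 were lower, with a median of −0.03 (2 higher with either library left out). Notch1 was at 129 and 112 in the follicle against 279 and 276 (−1.21 ± 0.06), while Notch2 was at 37.1 and 44.6 against 18.3 and 22.7 (0.995 ± 0.08). The ligands Dll1 at 10.1 and 10.6 against 34.2 and 31.3 (−1.66 ± 0.10), Jag1 (−0.68 ± 0.06) and Jag2 (−0.81 ± 0.07) were lower. The target Hes1 was higher by 0.36 ± 0.05.

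**Figure D3:**
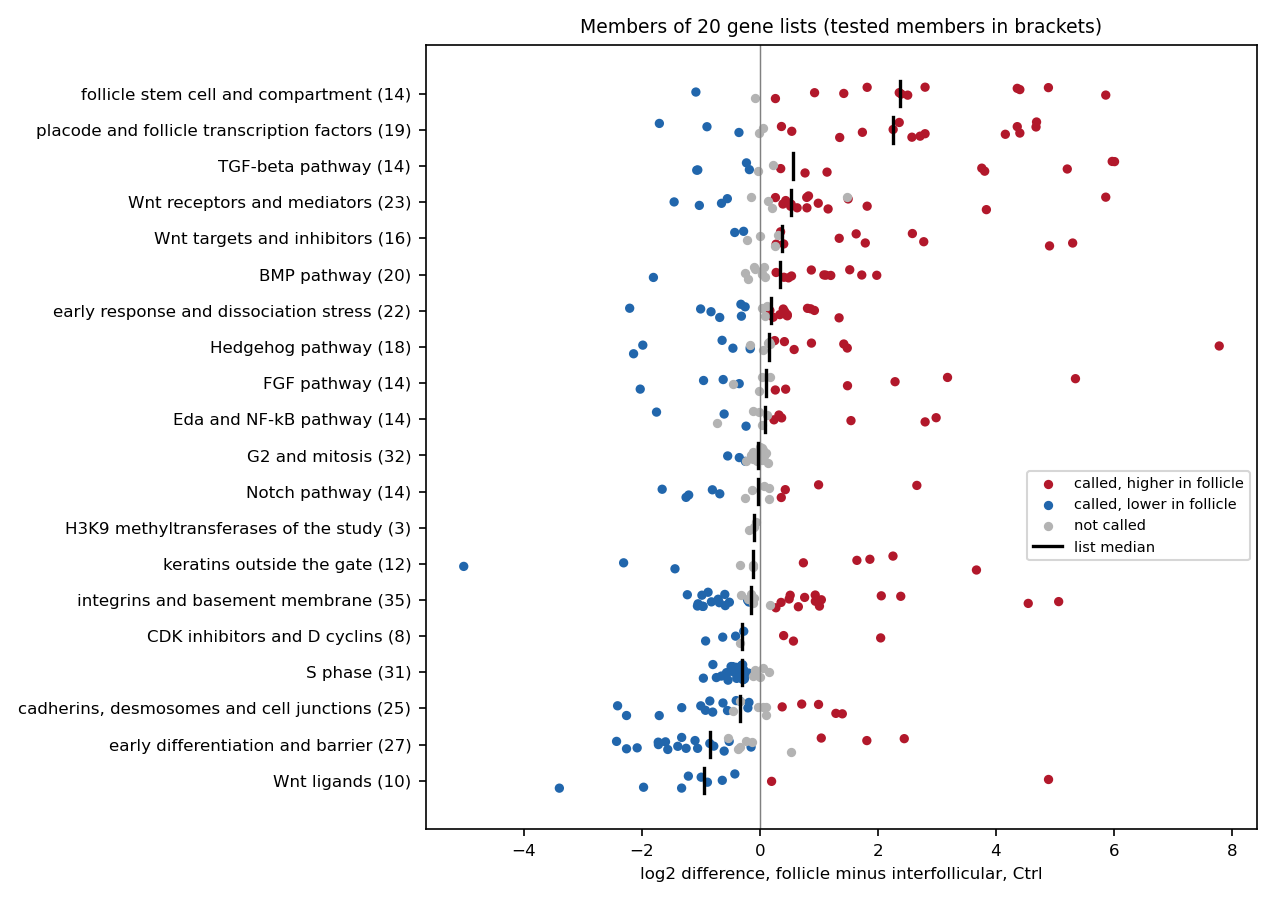
Log2 differences (follicle minus interfollicular) of the tested members of 20 gene lists in Ctrl, 1 point per gene, with the median of each list marked. Krt4 and Cnfn, which had no UMI in the follicle, are not drawn, and Hhip is drawn at its fitted value. Red points were called higher in the follicle, blue points lower, and grey points were not called. Medians run from 2.38 (follicle stem cell and compartment) to −0.94 (Wnt ligands).

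Of 25 cadherin, desmosome and junction genes 14 were lower in the follicle and 5 were higher (3 without Ctrl 1), with a median of −0.34. Pkp1, a desmosomal plaque protein, was at 105 and 104 against 257 and 267 (−1.32 ± 0.05). Cdh4 was at 10.3 and 6.85 against 54.9 and 36.4 (−2.41 ± 0.09). The desmogleins Dsg3 (−1.71 ± 0.07) and Dsg1a (−2.26 ± 0.13) and desmoplakin, Dsp, at 447 and 446 against 786 and 768 (−0.80 ± 0.04), were lower too. The higher genes were Epcam, the tight junction scaffold Tjp1 at 188 and 185 against 63.5 and 78.5 (1.40 ± 0.08), the connexins Gjb2 (0.99 ± 0.11) and Gjb6 (0.71 ± 0.10), and Cdh3, the P-cadherin of placodes, at 329 and 326 against 257 and 247 (0.38 ± 0.04). E-cadherin, Cdh1, was at 239 and 326 against 266 and 464 (−0.33 ± 0.07).

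Integrins and basement membrane genes split, with 14 of 35 higher (9 without Ctrl 1, 10 without Ctrl 2), 15 lower and a median of −0.14. The hemidesmosome genes Itga6, Itgb4 (−0.97 ± 0.06), Col17a1, Dst (−0.52 ± 0.07) and Plec (−0.69 ± 0.05) were lower, as was the anchoring fibril collagen Col7a1 (−0.71 ± 0.05). Frem1, a matrix protein of the Fraser complex, was at 133 and 102 in the follicle against 3.55 and 3.41 (5.06 ± 0.09), and Itgb8, the partner of αv integrin, at 65.9 and 72.7 against 2.89 and 3.02 (4.55 ± 0.09). The other members of the Fraser complex differed in sign, Frem2 by 1.04 ± 0.04 and Fras1 by −0.98 ± 0.04. The chains of type IV collagen differed by pair too: Col4a1 (0.65 ± 0.06) and Col4a2 (0.94 ± 0.06) were higher, while Col4a5 (−0.59 ± 0.05) and Col4a6 (−0.88 ± 0.06) were lower.

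Of 20 keratins outside the gate 12 were tested, 5 higher and 4 lower, with a median of −0.11 (3 and 4 without Ctrl 1, 2 and 2 without Ctrl 2). The higher ones included Krt8, a simple epithelial keratin, at 19.8 and 14.4 against 4.64 and 2.62 (2.26 ± 0.15) and Krt80 at 4.32 and 6.37 against 1.597 and 1.80 (1.64 ± 0.21). The Krt80 call was lost without Ctrl 2 (adjusted p = 0.078) and with germ barcodes alone (0.64). The Krt8 call was lost with germ barcodes alone (0.70 on the log2 scale, adjusted p = 0.22) and with barcodes holding markers of other cells, Dcn and Postn aside, left out (0.19, adjusted p = 0.72). Krt8 is itself one of the markers by which those barcodes were dropped, so the latter loss follows in part from the filter. Krt6a, a keratin induced by stress and in the follicle's companion layer, was at 0.0830 and 0.346 in the follicle against 6.60 and 8.20 (−5.02 ± 0.34), and Krt16 was at 7.97 and 8.86 against 19.8 and 25.9 (−1.44 ± 0.11), a call lost without either library. Krt4 had no UMI in the follicle and 248 between follicles, so it was at least 33.2-fold lower, against a floor of 3 UMIs over the group.

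Most early differentiation genes were lower in the follicle. Of 27 tested 18 were lower in the follicle and 3 were higher, with a median of −0.85. Krtdap, a differentiation-associated secreted peptide, was at 174 and 154 against 706 and 676 (−2.08 ± 0.05), and Lgals7, galectin-7 of stratified epithelia, at 1054 and 996 against 2705 and 2670.5 (−1.39 ± 0.03). Klf4, a barrier transcription factor, was at 95.5 and 195 against 286 and 376 (−1.25 ± 0.12), and Fabp5, a fatty acid carrier, at 625 and 459.8 against 1918 and 1633 (−1.72 ± 0.05). Cnfn, cornifelin of the cornified envelope, had no UMI in the follicle and 368 between follicles and was at least 49.2-fold lower against the same floor, and the list's median was −0.85 also with this gene at its bound. The higher genes were Grhl1 at 30.1 and 37.1 against 10.3 and 8.87 (1.81 ± 0.12), the calmodulin-like Calml3 at 7.56 and 6.71 against 1.36 and 1.25 (2.45 ± 0.20) and the lipid transporter Abca12 (1.04 ± 0.29). All barcodes had passed the same limit on Krt1 and Krt10.

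Many S phase genes were lower in the follicle, while few mitotic genes were called with the keratin floors of the gate. Of 31 S phase genes 24 were lower and none was higher, with a median of −0.31. Pola1, a DNA polymerase subunit, was at 121 and 116 against 207 and 168 (−0.65 ± 0.06), and Pcna, the sliding clamp, at 106 and 117 against 152 and 162 (−0.49 ± 0.05). With library totals alone 14 were lower and 2 were higher, with DESeq2 12 were lower and without the block 11. Leaving out Ctrl 1 gave 13 lower and leaving out Ctrl 2 gave 18, and among barcodes with no UMI of Mki67 and Top2a 11 were lower and 2 higher. Of 32 genes of G2 and mitosis 3 were lower and none was higher, with a median of −0.02, and Mki67, the proliferation antigen, was at 256 and 188 in the follicle against 262 and 218 (−0.12 ± 0.05), not called. The lower ones were Anln, anillin of the cytokinetic ring, at 57.9 and 40.0 against 72.7 and 68.3 (−0.55 ± 0.10), Ect2 (−0.35 ± 0.09) and Kif11 (−0.24 ± 0.08). Without the block none of the 32 was called. With an equal keratin floor of 50 for both compartments 24 of the 32 were lower (median −0.32). The median was −0.28 without Ctrl 1 and 0.08 without Ctrl 2, so the mitotic genes depended on the gate and on the library. Under the equal floor 25 S phase genes were lower.

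Among cyclins and CDK inhibitors 3 of 8 were higher and 4 were lower, with a median of −0.31 (1 and 2 without Ctrl 2). The main D cyclins went opposite ways: Ccnd1 was at 384 and 417 in the follicle against 96.2 and 97.4 (2.05 ± 0.05, adjusted p = 8.0e-09), while Ccnd2 was at 758 and 736 against 1194 and 1118 (−0.63 ± 0.03, adjusted p = 1.1e-06). Of the inhibitors, Cdkn1b, or p27, was higher at 68.3 and 79.2 against 48.1 and 51.3 (0.57 ± 0.06) and Cdkn1c, or p57, was lower at 64.6 and 81.4 against 144 and 132 (−0.92 ± 0.09). The Cdkn1b call was lost without Ctrl 2 (adjusted p = 0.0502).

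Early response and dissociation stress genes stood apart between the libraries. Of 22 tested 12 were higher and 7 were lower, with a median of 0.20, but without the block only 1 was higher and 1 was lower, and 2 were higher without Ctrl 1 and 7 without Ctrl 2. Their summed level was 5586 and 10646 in the follicle against 3658 and 9118, so Ctrl 2 was higher in both compartments, by more than the compartments differed. Jun was at 1508 and 2447 against 720.2 and 1551 (0.86 ± 0.08), with overlapping groups, and Nr4a1 at 74.1 and 144 against 22.4 and 69.3 (1.34 ± 0.13). Both calls were lost without the block (adjusted p = 0.20 and 0.17). Myc was lower in the follicle, at 8.30 and 9.96 against 38.3 and 46.0 (−2.21 ± 0.09), and in both compartments it too was higher in Ctrl 2. The 3 methyltransferase genes of the study, Suv39h1 (−0.18 ± 0.08), Suv39h2 (−0.06 ± 0.09) and Setdb1 (−0.09 ± 0.06), were not called. The labels give Suv39h2 as deleted in every embryo, and where the deletion lies relative to the counted reads was not examined, so its UMIs check nothing.

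Merkel cell markers moved with the follicle: all 7 tested of 8 were higher (4 of 7 without Ctrl 1, 3 of 7 without Ctrl 2), with summed levels of 219 and 153 in the follicle against 49.4 and 37.9 between follicles. Atoh1, the defining factor of Merkel cells, had 90 and 65 UMIs in the follicle against 1 and 6, while Krt20, a keratin of mature Merkel cells, had 2 and 3 against 3 and 6. Barcodes marked by these genes numbered 8 and 10 in the follicle and 2 and 4 between follicles. With barcodes holding markers of other cells left out, apart from the Dcn and Postn that keratinocytes hold here, 2 of 6 tested Merkel markers were higher and 7169 genes were called in all. The Merkel markers, Krt8 and Sox2 among them, helped decide which barcodes were dropped, so this setting cannot check their own differences. Sox2, which also marks the dermal condensate, was at 7.31 and 5.53 against 1.69 and 1.13 (2.19 ± 0.20), a call lost when either library was left out. It was the single tested gene of 6 dermal condensate markers. The Krt8 difference (above) became −0.09 when barcodes with markers of any list were dropped, Dcn and Postn included, which removed 221 and 315 follicle and 904 and 1200 interfollicular barcodes, and 39 of 42 and all 72 of the placode barcodes.

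Of 8 fibroblast markers 2 were higher and 1 was lower, and the sums were 1658 and 1488 in the follicle against 1621 and 1751. Col1a2 was at 54.7 and 76.9 against 16.54 and 14.45 (2.08 ± 0.14), a call lost when either library was left out, whereas the other higher gene, Lum, which encodes the matrix proteoglycan lumican, was at 10.2 and 10.2 against 2.80 and 1.92 (2.13 ± 0.19), a call lost with an equal keratin floor (adjusted p = 0.16). Dcn, decorin, made up most of the sums, at 1453 and 1228 against 1374 and 1471 (−0.09 ± 0.07), and was not called. Pdgfra was near 0 at 0.830 and 0.761 against 0.482 and 0.396. Immune markers summed to 25.1 and 8.92 against 15.6 and 23.8, with 1 of 7 called, Aif1, at 2.08 and 2.08 against 1.27 and 1.10 (0.82 ± 0.27), whose sign turned with an equal keratin floor. The Aif1 call was lost without the block (adjusted p = 0.079). With the equal floor 5 of 7 immune markers were lower and 0 higher (median −3.82), and 5 of 5 erythroid markers were lower (median −3.84). Of 4 melanocyte markers tested 1 was higher and 1 was lower: Mitf was at 25.1 and 35.9 against 6.33 and 4.85 (2.44 ± 0.18), and Pmel at 1.83 and 1.59 against 4.49 and 2.04 (−0.87 ± 0.28), while Tyrp1 had no UMI in any sum. The Pmel call was lost without the block (adjusted p = 0.19), with DESeq2 (0.37) and when either library was left out. Endothelial markers had 1 of 2 tested lower, Egfl7 (−0.32 ± 0.10), with Tie1 at 0 in every sum. The Egfl7 call was lost without the block (adjusted p = 0.10), with DESeq2 (0.42) and with an equal keratin floor (0.38). Schwann and muscle markers had 1 of 3 lower, Mbp at 16.9 and 21.7 against 32.6 and 37.1. Haemoglobin genes followed the library, at 13.1 and 737 in the follicle against 20.9 and 478 for the whole erythroid list, and 1 of the 5 was called, Hbb-bt, at 1.99 and 192 against 2.71 and 103, whose sign turned without Ctrl 2. Barcodes among the top doublet scores were 22 and 53 in the follicle (5.19% and 7.95%) against 37 and 53 (2.43% and 2.87%), and 6982 genes were called without them.

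The follicle barcodes were split by the 3 gating sums. The germ sum was passed by 293 and 451 barcodes, the placode sum by 104 and 165 and the peg sum by 161 and 290. Exactly 1 sum was passed by 160 and 219 germ, 42 and 72 placode and 89 and 143 peg barcodes, and 133 and 233 passed several, 1 and 6 of them all 3. Barcodes with exactly 1 sum were compared to describe how the follicle varied within itself. Of 12075 genes tested among the 3 stages 3981 (33.0%) differed, highest in germ for 1197, in placode for 1200 and in peg for 1584. Without the block 2973 differed, without Ctrl 1 there were 1110 and without Ctrl 2 there were 1151. The stages are ranges of these sums and not cell types that the data separate.

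Germ barcodes had the largest levels of Lgr5, at 97.4 and 99.3 in Ctrl 1 and Ctrl 2 against no UMI in placode barcodes and 46.4 and 47.2 in peg barcodes. Mme, Tbx1 and Hoxc13 followed the same order of germ first, as did the serine protease Prss35, at 88.0 and 93.4 in germ against 0 and 0 in placode and 5.04 and 14.1 in peg. Placode barcodes were marked by S100a9, a calcium-binding protein of inflammation, at 27.6 and 78.6 against 5.602 and 2.85 in germ and 0.504 and 2.41 in peg, and by Tmem100, a target of BMP receptor signalling, at 113 and 107 against 41.4 and 27.9 and 3.02 and 9.65. The myosin-binding Mybpc1, the secreted Scube1 and the LIM homeodomain factor Lmx1a were the other placode genes. Peg barcodes were marked by Scel, sciellin of differentiating keratinocytes, at 81.6 and 84.5 against 0.6002 and 1.83 in germ and 0 and 0 in placode, by Prdm1 at 94.7 and 139 against 61.8 and 51.5 and 0 and 1.51, and by Zfpm2, Col25a1 and Galnt17. Merkel genes were high in the peg barcodes too: Ccer2 was at 429 and 179 in peg against 42.4 and 13.0 in germ and 1.11 and 97.4 in placode, Krt8 at 74.6 and 21.0 against 3.60 and 8.14 and 0 and 12.8, and Atoh1 at 31.8 and 7.93 against 1.601 and 2.44 and 0 and 6.80. Of the 8 and 10 follicle barcodes marked by Merkel genes 5 and 4 were peg barcodes. Col25a1, at 264 and 65.5 in peg, and Galnt17, at 91.2 and 31.0, were higher in Ctrl 1 as Ccer2 was, and the part of Merkel cells in the peg values was not tested.

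Both exceptions among the follicle markers, Lef1 and Tnfrsf19, were high in placode barcodes. Lef1 was at 1317 and 1172 in placode barcodes, above the 755 and 849 between follicles, but at 560.4 and 498 in germ and 112 and 206 in peg. Tnfrsf19 was at 599 and 509.9 in placode against 322 and 327 between follicles, 314 and 295 in germ and 75.1 and 105 in peg. Wnt10b was at 253 and 219.8 in placode against 89.0 and 86.5, and lower in peg at 37.3 and 44.1. Placode barcodes thus had the highest level of all 3 genes and were the fewest in the gate, 42 and 72.

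Other genes had other orders among the stages. Each gene of this paragraph, and Lef1, Tnfrsf19, Wnt10b, Igfbp2 and Mki67, passed the edgeR test among the stages. Ccnd1 was at 580.4 and 672 in germ against 32.1 and 74.0 in placode and 75.1 and 146 in peg, and placode was below the 97.3 and 97.8 between follicles. Ccnd2 was highest in placode, at 1763 and 1682 against 748 and 599.6 in germ and 565 and 717 in peg, where germ and peg overlapped. Sox9 was at 147 and 189 in germ and 277 and 345 in peg but at 17.7 and 40.8 in placode, close to the 29.7 and 32.1 between follicles. Trps1 was highest in germ at 1222 and 1137, with 476 and 549 in peg and 169 and 194 in placode. Ptch1 was at 934 and 789 in germ, whereas placode (385 and 347) and peg (231 and 284) lay on both sides of the 329 and 331 between follicles. Edar was at 405 and 316 in germ and 484 and 409 in placode but at 58.0 and 84.8 in peg, below the 107 and 98.1 between follicles.

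Igfbp2, low in the follicle as a whole, was at 253 and 264 in placode barcodes and at 32.0 and 33.4 in germ and 19.7 and 44.5 in peg, against 417 and 443 between follicles. Mki67 was at 325 and 234 in germ, 227 and 204 in placode and 167 and 119 in peg barcodes, so peg was the lowest of the 3 in both libraries. With germ barcodes alone as the follicle 5313 genes were called against interfollicular barcodes, 7 S phase genes were lower and 1 higher, and 5 of the 32 mitotic genes were higher. Markers of other cells moved with that comparison, with 5 of 8 fibroblast markers higher (median 1.44) and 4 of 5 erythroid markers higher (median 1.69), and their part in it was not tested.

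**Figure D4:**
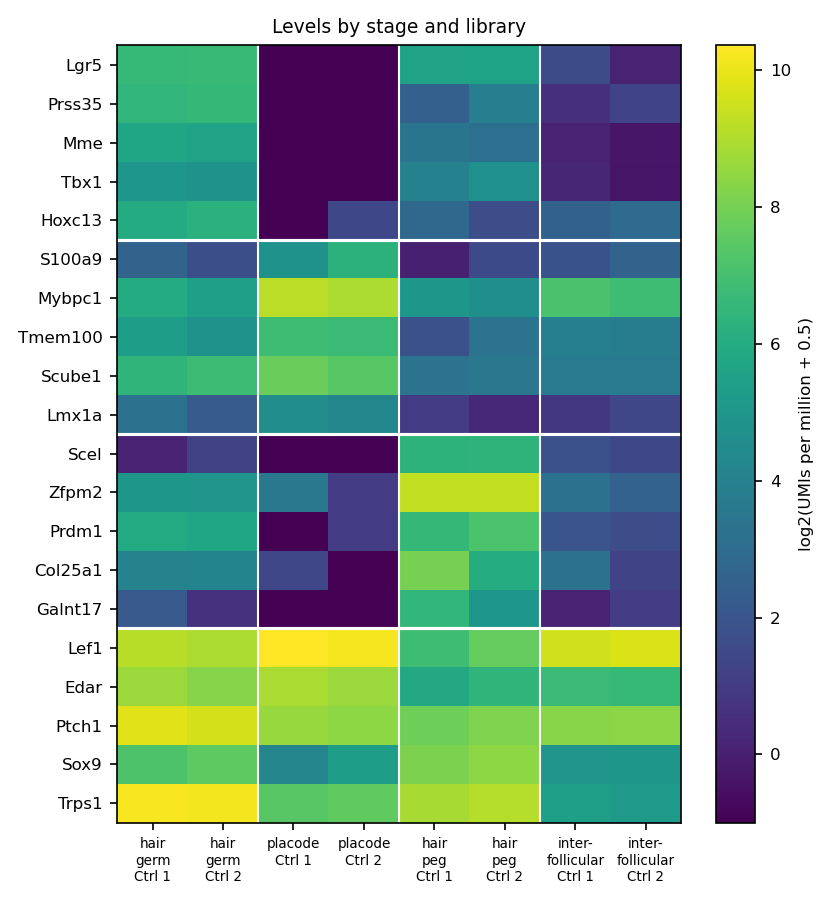
Heat map of log2(CPM + 0.5) for 15 genes named by stage, 5 each for germ, placode and peg barcodes, and for Lef1, Edar, Ptch1, Sox9 and Trps1, by stage and library, with the interfollicular sums beside them. Col25a1 and Galnt17 in peg and S100a9 in placode differ between the 2 libraries of a stage, and Lef1 is highest in the placode columns (1317 and 1172).

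The same gate was applied to the TKO libraries, which had no part in choosing the members. They held 203 and 352 follicle and 1077 and 1062 interfollicular barcodes. Of 17113 genes tested 4658 (27.2%) differed between the compartments, 2303 higher and 2355 lower in the follicle. Of the genes called in Ctrl and tested in both, 6133 of 6844 (89.6%) had the same direction in TKO, and among those past a log2 difference of 1 in Ctrl 1980 of 2129 (93.0%) did. Of the 6844, 3562 had the same direction and were called in TKO, and 872 had a called difference between the genotypes. The TKO barcodes were picked by the same gating genes, and the part of the gate in this agreement was not tested. Tgfb2 was at 224 and 236 in the TKO follicle against 3.71 and 4.01 (log2 difference 5.90), and Tll1 differed by 5.93. Lgr5 was at 2.91 and 49.5 against 0.490 and 0.554 (5.197), so its follicle level was low in TKO 1 and high in TKO 2. Krtdap was at 40.6 and 74.9 against 324 and 509 (−2.87).

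A test of the difference itself called 1057 of 18608 genes (5.68%), with the compartment difference higher in TKO for 613 (3.29%) and lower for 444 (2.39%). Exactly 1 sum was passed by 48 and 115 germ, 73 and 85 placode and 16 and 20 peg barcodes in TKO, so the 2 genotypes' follicle sums differ in their mix of stages. With germ barcodes alone as the follicle 274 genes were called, and of 1056 interaction calls tested there 992 had the same direction and 193 were also called. Without the block 71 genes were called. Without Ctrl 1 there were 433 calls and without Ctrl 2 there were 323. The TKO embryos differ from Ctrl in Cre as well as in the deletions, which cannot be told apart here.

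Among the genes whose follicle excess was smaller in TKO, Myrip was at 2.04 and 5.64 in the TKO follicle against 0.954 and 1.01, a log2 difference of 1.87 in place of 7.34. With germ barcodes alone the TKO minus Ctrl value was −1.90 in place of −5.35, and its call was lost (adjusted p = 0.52). Scel, a peg gene named above, was at 4.27 and 6.30 against 9.51 and 11.0 (−0.95 in place of 3.07). Its call was lost likewise, at −0.43 in place of −3.98 (adjusted p = 0.86). A call lost with fewer barcodes does not show that a difference is absent. Adarb2, an RNA-editing family member, was at 1.03 and 0.801 against 0.771 and 2.12 (−0.62 in place of 3.77), and Igfbp7, a secreted binding protein, at 10.0 and 23.3 against 9.73 and 8.84 (0.80 in place of 4.52). Ccer2, a Merkel marker of the list above, had no UMI in the TKO follicle. Its call in the edgeR interaction test was lost without the block (adjusted p = 0.56), without top doublet scores (0.54) and with germ barcodes alone (0.50).

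Among those that moved the other way, Cacng4, a regulatory subunit of ion channels, was at 29.5 and 42.2 in the TKO follicle against 1.93 and 2.32 (4.06 in place of 0.92), and Aff2, of the AF4/FMR2 family, at 25.5 and 23.7 against 2.26 and 1.92 (3.56 in place of 1.03). Lsamp, a cell adhesion molecule of neurons, changed sign, at 57.3 and 113 against 26.6 and 46.6 (1.20 in place of −1.33). Col19a1, the gene furthest towards the interfollicular side among those above 20 CPM in Ctrl, was at 28.4 and 9.40 against 42.9 and 28.7 (−1.04 in place of −3.78). The call of Ebf1, an early B-cell factor family gene, at 29.6 and 11.5 against 3.61 and 0.298, was lost when either Ctrl library was left out. Without the block the calls of Adarb2 (adjusted p = 0.14), Lsamp (0.14), Col19a1 (0.15) and Ebf1 (0.58) were lost, as was that of Ccer2 (above).

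**Figure D5:**
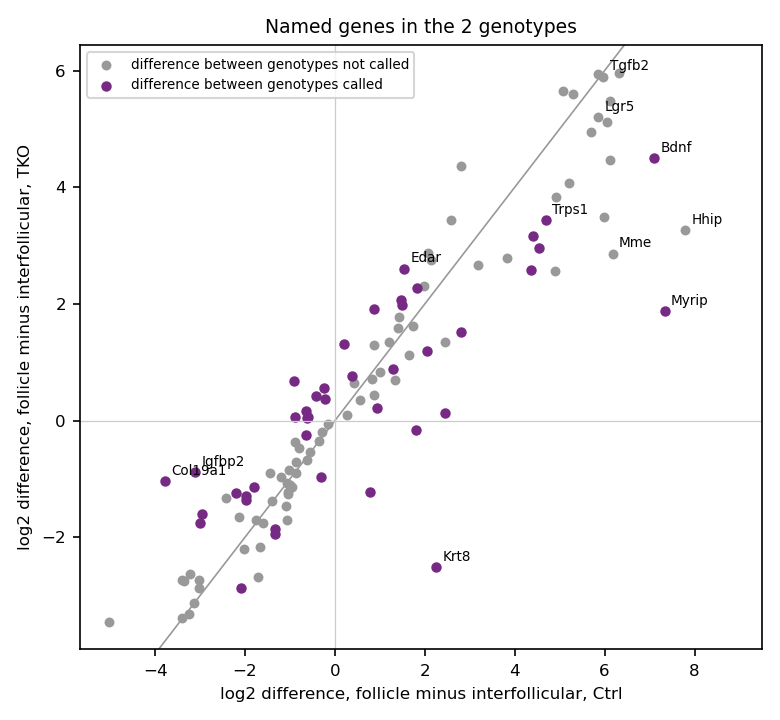
Log2 difference between follicle and interfollicular sums in Ctrl (horizontal) and TKO (vertical) for 115 named genes, with the 42 genes whose difference was called between genotypes in purple and equality drawn as a line. Most points lie in the same quadrant in both genotypes, with Myrip (7.34 in Ctrl, 1.87 in TKO) far below the line and Igfbp2 (−3.11, −0.88) above it.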

How the data were processed

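The 4 single-cell RNA-seq libraries (2 Ctrl, 2 TKO) came from 1 embryo each, with 10000 cells sorted and 5000 targeted. The authors made the libraries with a 10x Genomics 3′ v3 kit, mapped reads to GRCm39 and deposited raw UMI counts per gene and barcode after cell calling. Cell Ranger 7.1.0 stands in the file headers, and a different version in the paper's methods. Which annotation release was used, and whether intronic reads were counted, is not given in the sources used here, and no doublets were removed in the deposited counts. The deposited counts are not normalized.

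Members and gene lists were chosen with earlier results of these data known. Barcodes were gated as described in the report and UMI counts were summed per library and compartment, without the 15 gating genes. Cells are not replicates, so the 4 Ctrl sums were tested with edgeR 4.0.16 (R 4.3.3): TMM factors, the default expression filter, glmQLFit and glmQLFTest, library as a block, and a threshold of 0.05 on Benjamini-Hochberg adjusted p-values. The 3 stages, the TKO sums and the interaction of compartment with genotype were fitted likewise. Both compartments of a library come from 1 embryo, which pairs them. The Ctrl 1 minus Ctrl 2 deviations of both compartments correlated over 17634 genes (r = 0.42), and genes are not independent replicates.

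Named genes were the 12 largest and 12 smallest called differences with at least 20 CPM in the higher compartment, 18 genes given whatever their result, and the 2 members of each list with the smallest p in each direction, 117 in all, and besides these 5 genes per stage and the 5 largest and smallest interactions, 135 together. Other members of the lists are given by value, and 1 result is not reported here, though the counts include it. Positions are GENCODE vM39 on GRCm39, matched by gene ID. Of the 117, 33 overlap another gene on the same strand, among them Myrip, Synpo2, Trps1, Lef1 and Ptch1, so their counts are uncertain to that extent. Alternatives were DESeq2 1.42.0, other scaling, filters, gates and thinning to 10000 UMIs, with doublet scores by Scrublet (scanpy 1.11.5) at 0.8% per 1000 barcodes. The edgeR step was tested on simulated data.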

Additional observations from a re-analysis of the deposited data

Results flagged for a closer look

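Of 135 genes examined, 54 had a difference between follicle and interfollicular sums that differed between Ctrl and TKO by the edgeR interaction test (adjusted p under 0.05). Values are the TKO minus the Ctrl log2 difference, and 5.68% of all genes tested were called. Of the 135, 10 were chosen by this same test and all 10 are among the 54. Many of the others were chosen by their Ctrl difference, which is part of what this test compares. The count is thus not read against that share. The stage mix of the follicle differed between the genotypes (above), and with germ barcodes alone 193 of 1056 calls over all genes were called again in the same direction. Among calls that also differed among the Ctrl stages, 69.7% of those lower in TKO were highest in peg. Of those higher in TKO, 84.4% were highest in placode. Over all genes that differed among stages these shares were 39.8% and 30.1%. The part of the stage mix in the genes below was not tested.

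The difference was lower in TKO for 24 genes. Follicle and stem cell factors among them were Sox9 (−1.24), Trps1 (−1.22), Nfatc1 (−1.20), Runx1 (−1.74), Prdm1 (−1.96) and Lrig1 (−0.68). Genes of adhesion and differentiation were Epcam (−0.36), Pkp1 (−0.58), Itgb8 (−1.55), Grhl1 (−1.90), Krtdap (−0.75) and Scel (−3.98). Secreted factors were Bdnf (−2.58), Wnt4 (−0.51), Igfbp7 (−3.66) and Scube1 (−0.55). The others were Krt8 (−4.80), whose follicle level moved with Merkel markers (above), Myrip (−5.35), Adarb2 (−4.50), Ccnd1 (−0.83), Ccer2 (−8.05), Mitf (−2.28), Egfl7 (−0.62) and Hbb-bt (−1.97). Ccer2 had no UMI in the TKO follicle, so its fitted value is no bound, and its call was lost in several alternatives (above).

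The difference was higher in TKO for 30 genes. Wnt and Eda pathway genes were Lef1 (0.85), Axin2 (0.63), Wnt10b (1.15), Wnt16 (0.72), Lgr6 (0.48), Kremen2 (0.87), Edar (1.09), Edaradd (0.69) and Tnfrsf19 (0.82). Hedgehog, BMP and FGF genes were Cdon (0.66), Bmp2 (1.07), Bmpr1b (0.69) and Dusp6 (0.53). Cell cycle and growth genes were Ccnd2 (0.71), Cdkn1c (1.64), Myc (0.998), Pola1 (0.45) and Igfbp2 (2.26). The others were Col19a1 (2.78), Serpinb10 (1.29), Gria2 (1.40), Cdh3 (0.42), Postn (0.98), Cacng4 (3.18), Ebf1 (3.05), Lsamp (2.56), Aff2 (2.56), Mybpc1 (1.19) and Tmem100 (1.39).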

How the results depend on the processing

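In Ctrl the count of called genes ranged from 3424 to 7894 over the alternatives. Without the library block, which pairs the compartments of an embryo, 4299 genes were called in Ctrl (2362 higher, 1937 lower), 1689 in TKO (1009 and 680) and 71 by the interaction (25 and 46), and 14 of 117 named genes lost their call. With DESeq2 the counts were 3723 in Ctrl (1979 and 1744), 1841 among stages, 2451 in TKO (1337 and 1114) and 688 by the interaction (349 higher). With library totals alone 2210 Ctrl genes were lower. Without the expression filter the interaction gave 2087 (988 and 1099), and with germ barcodes alone 274 (135 and 139). With follicle sums of at least 5 per 10000 the follicle share was 18.6%. The cause of these changes was not tested.

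Leaving out 1 library, with the spread taken from the other libraries, gave 3424 to 3447 Ctrl calls (1578 to 1581 higher, 1846 to 1866 lower), 1110 to 1151 among stages, 4153 to 4960 in TKO (2078 to 2468 higher, 2075 to 2492 lower), 323 to 1428 by the interaction (187 to 807 higher, 136 to 621 lower) and shares of 21.8% to 26.5%.

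Directions turned for 7 named genes. With an equal keratin floor of 50 the log2 differences were −0.23 for Wnt10b, 0.084 for Apcdd1, −0.11 for Aif1 and −4.33 for Hbb-bt. With barcodes holding markers of other cells left out, a setting that removed nearly all placode barcodes, they were −0.64 for Wnt10b, −0.085 for Krt8, −0.042 for Sox2 and 0.23 for Pmel. Krt8, Sox2 and Pmel are among the markers by which those barcodes were dropped, so their values there cannot check their differences. With germ barcodes alone Wnt10b was at −0.032. Without cycling barcodes Apcdd1 was at 0.063 and Hbb-bt at −6.20. Hbb-bt was at 0.85 without Ctrl 1, −0.48 without Ctrl 2, −0.998 with thinning and −4.40 without top doublet scores. The germ-alone, leave-one-out (stages, TKO, interaction) and 2 other alternatives were chosen after seeing the data.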
